A study of Homo sapiens with 14 samples.

Results

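Voltage-gated sodium and calcium channels, the pacemaker channels (HCN), the transient receptor potential channels (TRPC, TRPM and TRPV) and the CLCN chloride channels and transporters were followed in CHP-134 cells, a human neuroblastoma line with MYCN amplification. Members were all genes whose symbol begins with SCN, CACNA, CACNB, CACNG, HCN, TRPC, TRPM, TRPV or CLCN and the number of the family member, so that accessory subunits are included. The rule uses symbols and no measured value, but it was chosen with earlier results of these data known. The rule took 70 of 17810 rows of the OmoMYC experiment, of which 54 had enough counts to be tested, and 71 of 19143 rows of the parental experiment, of which 51 were tested. Across both tables these were 72 symbols, 67 of them in both. CACNG3 was listed only in the OmoMYC table, and CACNA1F, HCN3, TRPM1 and TRPV5 only in the parental one.

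In the first experiment, 3 libraries came from cells that express OmoMYC, a dominant negative form of the MYC dimerization domain, and 3 from cells that express EGFP, each from a doxycycline-inducible lentiviral construct and each after 3 days in 1 µg/ml doxycycline. The OmoMYC and EGFP cells were separately transduced and selected populations, so a difference between the populations and an effect of OmoMYC cannot be told apart. In the second experiment, parental CHP-134 cells received 500 nM dTAG47, a molecule that degrades proteins carrying an FKBP12 tag, or its solvent DMSO for 18 h, with 4 libraries in each group. Parental cells carry no tagged protein, so this comparison asks what dTAG47 itself does. Total counts per library ranged from 28060817 to 38358128 in the OmoMYC experiment and from 40861430 to 53451641 in the parental one.

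Voltage-gated sodium and calcium channels open when the membrane depolarizes. Each has a large pore-forming alpha subunit, and accessory subunits set how much channel reaches the membrane and how it gates. HCN channels open on hyperpolarization and pace rhythmic firing, TRP channels admit cations in response to lipids, temperature, stretch or divalent ions, and CLCN proteins carry chloride across the plasma membrane or exchange it for protons in endosomes and lysosomes. Neuroblastoma arises from sympathoadrenal precursors of the neural crest, a lineage that becomes electrically excitable as it matures.

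The promoters of 4 members are shown because TRPC4 and TRPM6 had the largest called rises, TRPM7 was one of the members that fell and has a pair of CACGTG motifs, and CACNA1B was the most abundant calcium channel alpha subunit that rose and has one such motif. The sequences are from RefSeq on GRCh38.p14 and run from 250 bases before to 50 bases after the gene start, 5′ to 3′ on the strand of the gene. Capitals mark the E-box CACGTG, the core sequence that MYC and MAX dimers bind. TRPC4 lies at chr13:37869723-37870022 on the minus strand, TRPM6 at chr9:74887872-74888171 on the minus strand, CACNA1B at chr9:137877532-137877831 on the plus strand and TRPM7 at chr15:50686748-50687047 on the minus strand.
TRPC4: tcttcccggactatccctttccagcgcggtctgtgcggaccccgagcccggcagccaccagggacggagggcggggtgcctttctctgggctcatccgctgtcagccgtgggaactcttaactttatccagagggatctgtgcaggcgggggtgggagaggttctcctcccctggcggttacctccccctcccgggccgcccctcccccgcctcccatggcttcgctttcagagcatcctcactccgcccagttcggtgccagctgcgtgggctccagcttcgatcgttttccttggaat
TRPM6: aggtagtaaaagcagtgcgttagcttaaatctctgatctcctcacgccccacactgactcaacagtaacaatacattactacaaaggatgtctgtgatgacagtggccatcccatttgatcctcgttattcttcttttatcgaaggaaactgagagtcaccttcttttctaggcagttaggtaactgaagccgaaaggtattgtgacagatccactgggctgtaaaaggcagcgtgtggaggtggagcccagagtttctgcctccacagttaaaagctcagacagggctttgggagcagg
CACNA1B: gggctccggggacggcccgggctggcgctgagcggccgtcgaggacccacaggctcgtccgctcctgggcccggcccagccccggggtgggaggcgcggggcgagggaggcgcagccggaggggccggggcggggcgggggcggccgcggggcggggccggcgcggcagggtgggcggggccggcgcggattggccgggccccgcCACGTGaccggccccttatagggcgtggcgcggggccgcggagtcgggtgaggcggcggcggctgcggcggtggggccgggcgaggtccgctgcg
TRPM7: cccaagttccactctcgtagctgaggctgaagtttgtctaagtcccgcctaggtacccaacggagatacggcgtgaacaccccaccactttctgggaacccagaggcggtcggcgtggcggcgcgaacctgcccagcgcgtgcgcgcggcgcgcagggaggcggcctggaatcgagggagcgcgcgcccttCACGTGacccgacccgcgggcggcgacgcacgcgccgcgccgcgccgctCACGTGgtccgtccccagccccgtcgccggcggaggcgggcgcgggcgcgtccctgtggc

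In TRPM7 the motifs began 59 and 10 bases before the start, and in CACNA1B the motif began 45 bases before it. The windows of TRPC4 and TRPM6 held no CACGTG. The TRPM6 window also had a low GC content of 46.7% with 6 CpG dinucleotides, against 73.3% with 48 in TRPM7, 85.3% with 49 in CACNA1B and a median of 58.3% with 14 over all RefSeq promoters. Of the 51 members with a promoter in the RefSeq table, 7 held CACGTG, which reads the same on both strands, against 7.43% of all 27305 promoters. These were 3 of the 20 induced members (CACNA1B, CACNA1I and CLCN4), 3 of the 16 that were tested and not called (CLCN6, CLCN7 and TRPV3) and 1 of the 2 suppressed ones (TRPM7). The left part of the RE1 element, TTCAGCACC on either strand, to which the repressor of neuronal genes REST binds, stood in the CACNG3 window alone, against 0.403% of all promoters. A match is a description of the letters in the window and no measure of binding.

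The labelled cell type was checked against its markers. HAND2, a transcription factor of sympathetic neuroblasts, stood at 258 ± 20 CPM (counts scaled to the library size, SD, n = 3) in EGFP and 275 ± 12 (n = 3) in OmoMYC libraries, and GATA3 and PHOX2A were also high. The catecholamine enzymes TH and DBH were near absence, with group means of at most 1.16 CPM in either experiment. MYCN stood at 2713 ± 266 CPM in EGFP and 2240 ± 66 in OmoMYC libraries. Of the 8 markers of blood, epithelium, endothelium, fibroblasts, muscle and glia, 6 had group means of at most 1.26 CPM in the OmoMYC experiment, and the endothelial PECAM1 had no count in EGFP libraries. The muscle myosin MYH3 stood at 4.93 and 4.08 CPM and the fibroblast collagen gene COL1A1 at 21.2 ± 3.5 CPM in EGFP and 31.5 ± 4.4 in OmoMYC libraries. Summed, these markers reached 25.3 to 31.6 CPM in EGFP and 35.5 to 43.1 CPM in OmoMYC libraries, and their part in the channel results was not tested. In bulk RNA, fewer expressing cells and less RNA per cell cannot be told apart.

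Most channel genes that differed between OmoMYC and EGFP cells were higher in OmoMYC cells. At a false discovery rate below 0.05 over all 13803 genes tested (edgeR quasi-likelihood test), 28 of the 54 tested members were induced (51.9%), against 27.3% of all genes tested, and 3 were suppressed (5.56%), against 25.7%. The induced group held sodium channel alpha subunits, HCN4 and both of the less abundant T-type calcium channels, and the suppressed genes included TRPM3 and TRPM7. In 32 members all OmoMYC libraries lay above all EGFP libraries (59.3%, against 32.0% of all genes tested), and in 4 they lay below (7.41%, against 30.3%). The median log2 fold change of the tested members was 0.51, against 0.01 over all genes tested. A log2 fold change of at least 1 was reached by 12 of the induced members (22.2%, against 6.68%) and by none of the suppressed ones. TRPC4, CACNG7, SCN4B, SCN7A and SCN11A are among these 12 and had fewer than 10 counts in at least 1 EGFP library. This share was not recounted without genes of so few counts.

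The filter on low counts removed 16 rows, and a gene can pass it through the OmoMYC libraries alone. In 45 members every library held at least 10 counts, and of these 24 were induced and 3 suppressed, against 27.5% and 26.1% of the 13006 genes that met the same limit, with a median of 0.31 in place of 0.51. Of the calls, 20 of the 28 rises and 2 of the 3 falls kept their direction and their side of the threshold in every alternative analysis in which the gene was tested.

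**Figure D1:**
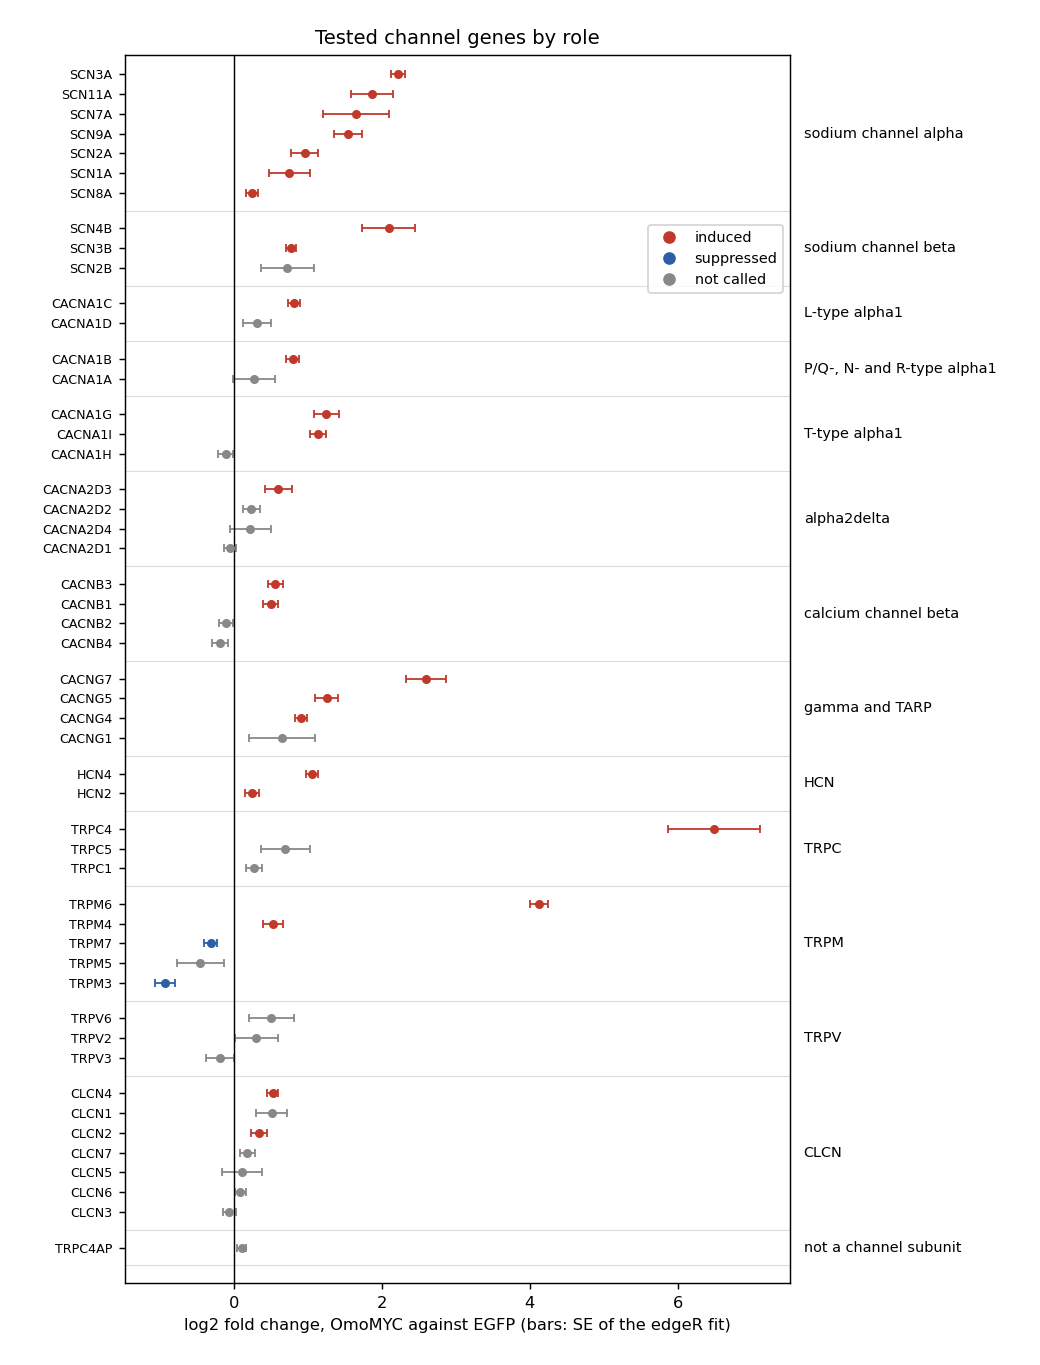
Log2 fold change of OmoMYC (n = 3) against EGFP (n = 3) on the x axis for 50 of the 54 tested members, grouped by role, with the SE of the edgeR fit as bars and the call at a false discovery rate below 0.05 as colour. The sodium channel alpha subunits drawn lie to the right of 0, TRPC4 (6.49, a size that depends on the prior count because EGFP libraries were near 0) and TRPM6 (4.12) lie farthest right, and TRPM7 and TRPM3 show called falls.

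Genes of high GC content tended to be higher in OmoMYC libraries, whatever their function. Of the 6084 genes tested with an exonic GC content of at least 50%, 43.2% were induced, and of the 7415 below 50%, 14.7%. Among the channel genes, 14 of 29 members with a GC content of at least 50% were induced (48.3%), and 14 of 25 below it (56.0%). Members of low GC content therefore stood farther from the share of their own GC class than members of high GC content. When a trend of the counts on GC content, exonic length and gene span was removed from each library, 22 members were induced (40.7%), against 22.2% of all genes, and 12 were suppressed (22.2%), against 38.4%. The median of the members was then 0.15, against -0.08 over all genes, and 24 of the 31 original calls kept their direction and call. Whether the GC trend comes from the libraries or from the cells was not tested.

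**Figure D2:**
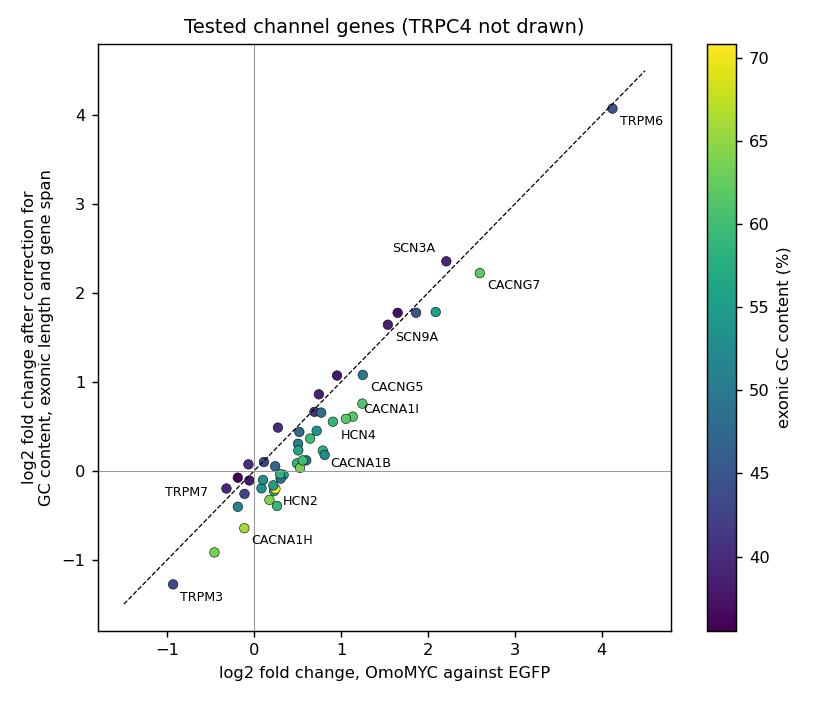
Log2 fold change of OmoMYC against EGFP before (x axis) and after (y axis) removal of the trend on GC content, exonic length and gene span, for 49 tested members, coloured by exonic GC content in percent, with the line of equal values dashed. TRPC4 is not drawn. SCN3A and TRPM6 stay near the line, while GC-rich members such as HCN2 and CACNA1H lie below it.

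Sodium channel alpha subunits, which form the pore that carries the upstroke of the action potential, rose together. Of the 10 rows of this group 8 were tested. The 7 described by name were all induced, against 27.3% of all genes tested, with log2 fold changes from 0.24 to 2.21. SCN3A, the alpha subunit typical of embryonic and neonatal neurons, stood at 32.1, 27.7 and 25.7 CPM in the EGFP libraries and at 133, 138 and 125 CPM in the OmoMYC libraries. The OmoMYC libraries were all far above the EGFP libraries, which spread less than the gap between the groups. The fitted log2 fold change was 2.21 (SE 0.09, edgeR adjusted p = 3.62e-08), and it was 2.36 after the correction for GC content, length and span.

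The peripheral and less abundant alpha subunits rose as well. SCN9A, which sensory and sympathetic neurons use, had 1.55, 1.04 and 0.999 CPM in EGFP and 3.48, 3.48 and 3.55 CPM in OmoMYC libraries (log2 fold change 1.54, SE 0.19, edgeR adjusted p = 9.2e-05). SCN11A, a subunit of nociceptors that resists tetrodotoxin, had 14, 8 and 10 counts in EGFP and 39, 42 and 48 in OmoMYC libraries (1.86, SE 0.28). For both genes the groups did not overlap. SCN7A, an atypical member that senses sodium rather than voltage, rested on the fewest counts of the group, 8, 2 and 3 in EGFP and 13, 18 and 15 in OmoMYC libraries (1.65, SE 0.45). The groups were apart in SCN7A too, but the SE shows how little these counts fix the size. SCN11A shares 61 bases of exon with WDR48 on the opposite strand. With noncoding genes on the opposite strand SCN1A shares 1631 bases of exon, SCN9A 1589, SCN3A 975 and SCN8A 896. SCN2A shares 240 bases with a noncoding gene on the same strand. The sources used here do not say whether counting used strand.

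SCN2A and SCN1A, the main alpha subunits of central neurons, had log2 fold changes of 0.95 and 0.74. The groups overlapped in SCN1A, 53, 22 and 26 counts in EGFP against 46, 84 and 58 in OmoMYC libraries. Its call was lost without EGFP replicate 2 or 3 or without OmoMYC replicate 2 or 3 (edgeR adjusted p 0.105 to 0.172). SCN8A, the main subunit of the axon initial segment and of nodes, rose least, from 40.7, 35.2 and 36.9 CPM in EGFP to 43.5, 46.2 and 43.7 CPM in OmoMYC libraries. Although these groups were apart, the log2 fold change of 0.24 (SE 0.08, edgeR adjusted p = 0.0275) fell to 0.05 after the correction for GC content, length and span, and the call was lost without any one library other than EGFP replicate 1 (adjusted p 0.0695 to 0.191).

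The unequal rises changed which alpha subunit led. To compare genes, CPM was divided by exonic length in kilobases (RPKM). In EGFP libraries SCN8A was at 3.02 ± 0.23 RPKM (SD, n = 3) and SCN3A at 2.46 ± 0.28, and the ranges of these neighbours were apart, 2.83 to 3.27 against 2.22 to 2.77. In OmoMYC libraries SCN3A was at 11.4 ± 0.5 RPKM and SCN8A at 3.57 ± 0.12. The sum over the 10 alpha subunits was 6.52 ± 0.60 RPKM in EGFP and 16.9 ± 0.7 in OmoMYC libraries, and SCN3A made up 37.8% and 67.4% of it. In both groups SCN2A, SCN9A, SCN1A, SCN4A, SCN11A, SCN7A and SCN10A were each below 0.41 RPKM.

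**Figure D3:**
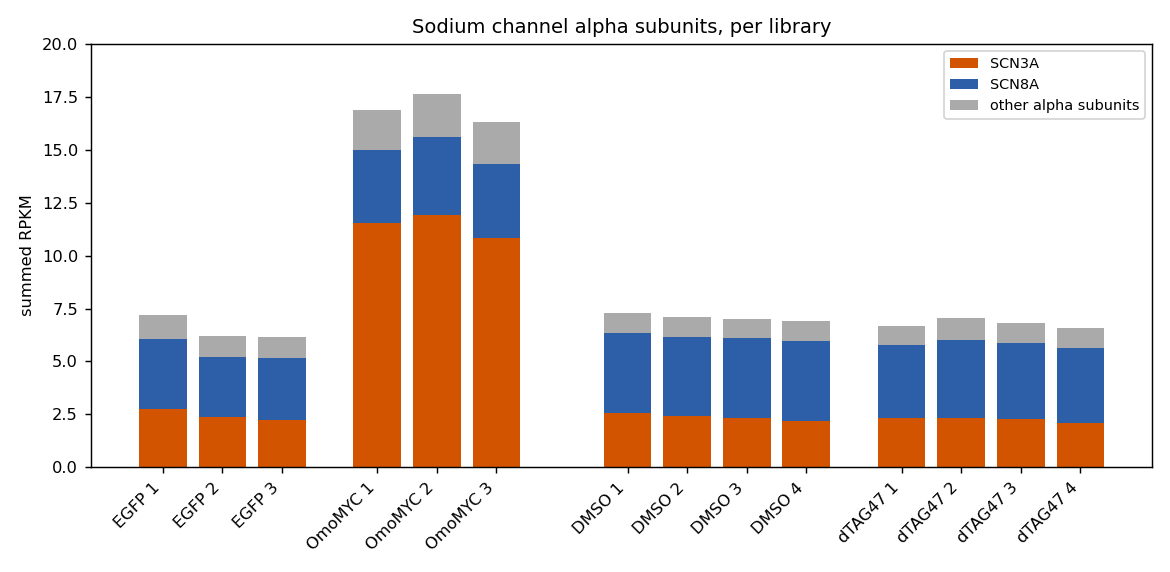
Summed RPKM (y axis) of the sodium channel alpha subunits in each of the 14 libraries (x axis), stacked by subunit. The 3 OmoMYC libraries reach 16.3 to 17.6 RPKM, with SCN3A as the largest part, while the EGFP, DMSO and dTAG47 libraries reach 6.15 to 7.29. The experiments were tabulated separately.

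Beta subunits bind the alpha subunits and act as cell adhesion molecules. SCN3B, the most abundant one at 8.29 ± 0.15 RPKM in EGFP libraries, rose from 81.6, 82.9 and 84.6 CPM to 141, 146 and 138 CPM (log2 fold change 0.77, SE 0.06, edgeR adjusted p = 7.78e-06). SCN4B, which produces the resurgent current, rose from 6, 4 and 7 counts to 24, 39 and 19 (2.09, SE 0.36). Groups were apart for both. SCN2B had 5 to 11 counts in EGFP and 12 to 18 in OmoMYC libraries and was not called (0.72, SE 0.36).

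**Figure D4:**
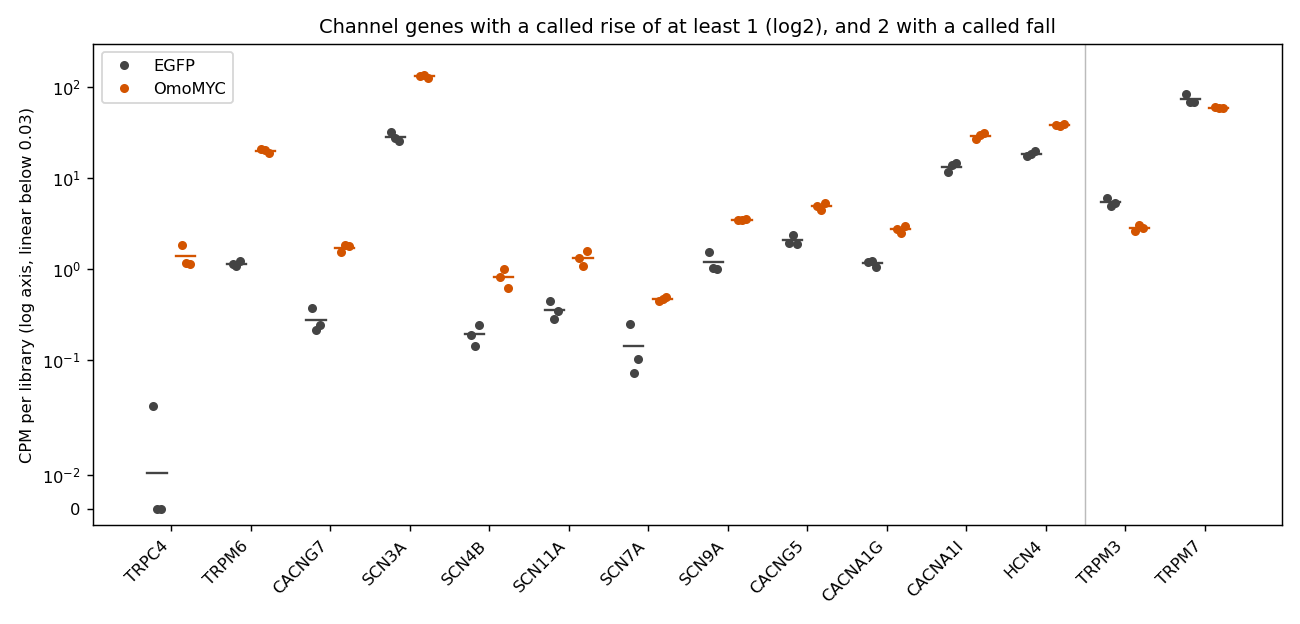
CPM in each EGFP and OmoMYC library (y axis, logarithmic and linear below 0.03) for the 12 members with a called log2 fold change of at least 1 and, right of the grey line, 2 with a called fall. Points are libraries (n = 3 a group) and bars group means. The groups are apart in all 14 genes, and TRPC4 has no counts in 2 EGFP libraries.

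High-voltage-activated calcium channels rose by less than SCN3A. CACNA1B, the N-type alpha subunit that triggers transmitter release, provided nearly all of the P/Q-, N- and R-type group, 99.9% of its summed RPKM in either group. It stood at 126, 130 and 147 CPM in EGFP and 212, 228 and 258 CPM in OmoMYC libraries (log2 fold change 0.79, SE 0.09, edgeR adjusted p = 5.67e-05). The OmoMYC libraries were all above the EGFP ones. After the correction for GC content, length and span the change was 0.23 and still called. CACNA1A (P/Q-type) had 17 to 36 counts and a change of 0.26 (SE 0.28, and -0.40 after the correction), which was not called, and CACNA1E (R-type) had a single count in 6 libraries. CACNA1C, the L-type channel of heart, smooth muscle and neurons, rose from 12.8, 14.5 and 13.5 CPM to 24.0, 23.2 and 24.5 CPM (0.81, SE 0.09), a change that was 0.18 and still called after the correction. Its libraries were tight in both groups. CACNA1D, the other tested L-type subunit, was not called (0.30, SE 0.19, and -0.09 after the correction). It shares 1399 bases of exon with CHDH on the opposite strand.

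Among the T-type channels, which open near the resting potential and carry burst firing, the scarce members rose and the abundant one was not called. CACNA1H stood at 106, 122 and 138 CPM in EGFP and 110, 106 and 122 CPM in OmoMYC libraries, and these ranges overlapped (log2 fold change -0.11, SE 0.10). CACNA1I had 11.6, 13.8 and 14.8 CPM in EGFP and 27.1, 29.7 and 31.5 CPM in OmoMYC libraries (1.14, SE 0.11, edgeR adjusted p = 1.73e-05). CACNA1G had 38, 34 and 31 counts in EGFP and 82, 97 and 91 in OmoMYC libraries (1.25, SE 0.17, edgeR adjusted p = 0.000198). For CACNA1I and CACNA1G the groups were apart. The share of CACNA1H in the summed T-type RPKM was 91.2% ± 0.3 in EGFP and 81.3% ± 0.8 in OmoMYC libraries (SD, n = 3). CACNA1H is a GC-rich gene (66.1%). After the correction its change was -0.65 and called, and it was also called without EGFP replicate 1 (-0.22), so its call depends on these choices, while CACNA1I (0.61) and CACNA1G (0.76) remained called.

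Of the accessory calcium channel subunits, the alpha2delta proteins, which carry channels to the membrane, had 1 induced member of 4 (25%, near the 27.3% of all genes tested). After the correction for GC content, length and span none was induced and 2 were suppressed. CACNA2D1, the most abundant at 12.7 ± 1.0 RPKM in EGFP libraries, had a log2 fold change of -0.06 (SE 0.08), and of -0.11 after the correction, which was called (edgeR adjusted p = 0.0198). CACNA2D2 and CACNA2D4 were not called (0.23, SE 0.12, and 0.22, SE 0.28). CACNA2D2 was called as induced with the replicate number as a block (0.23, edgeR adjusted p = 0.0328) and as suppressed after the correction (-0.23, edgeR adjusted p = 0.0111). CACNA2D3 was called (0.60, SE 0.18, edgeR adjusted p = 0.0164) at 1.29 to 1.89 CPM in EGFP and 2.42 to 2.60 CPM in OmoMYC libraries. This call was lost without EGFP replicate 2 or without OmoMYC replicate 2 or 3 (adjusted p 0.052 to 0.0778) and after the correction for GC content, length and span (0.12).

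The beta subunits, which bind the alpha subunit inside the cell, split by abundance and by GC content alike. GC content was 58.6% in CACNB1 and 59.8% in CACNB3, against 42.9% in CACNB2 and 35.5% in CACNB4. The part of either trait was not tested. The more abundant CACNB1 and CACNB3 were induced (0.49, SE 0.10, and 0.56, SE 0.10), from 38.2, 43.7 and 51.7 CPM to 60.9, 63.5 and 63.4 CPM for CACNB1 and from 28.9, 33.1 and 36.5 CPM to 48.7, 44.7 and 51.7 CPM for CACNB3. Both had groups apart and both are GC-rich, and after the correction neither was called (0.08 and 0.12). CACNB2 and CACNB4 were not called (-0.11, SE 0.09, and -0.19, SE 0.11), but CACNB2 was called as suppressed after the correction (-0.26).

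The gamma family holds the muscle gamma subunits and the transmembrane AMPA receptor regulatory proteins (TARPs), which carry glutamate receptors to the synapse and tune them. CACNG7, a TARP, rose from 12, 6 and 7 counts to 45, 71 and 54 (log2 fold change 2.60, SE 0.27, edgeR adjusted p = 3.49e-05). CACNG5, another TARP, rose from 61, 67 and 55 counts to 146, 171 and 164 (1.25, SE 0.15). CACNG4, the most abundant TARP here, rose from 40.5, 44.6 and 46.8 CPM to 83.5, 79.8 and 83.8 CPM (0.91, SE 0.08, edgeR adjusted p = 8.5e-06). In all 3 genes the OmoMYC libraries lay above the EGFP libraries, and all 3 stayed called after the correction, at 2.22, 1.08 and 0.55. CACNG3, which had too few counts to be tested, had no count in the 3 EGFP libraries and 6, 11 and 9 in the OmoMYC libraries, at least 2.57-fold higher against a floor of 3 counts per library. CACNG1, the muscle gamma subunit, was not called (0.64, SE 0.44), and CACNG2, CACNG6 and CACNG8 had at most 3 counts in any library.

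HCN channels were induced by unequal amounts. HCN4, the slow pacemaker channel of the sinoatrial node and thalamus, rose from 17.5, 18.4 and 19.8 CPM to 39.0, 37.6 and 39.3 CPM (log2 fold change 1.06, SE 0.08, edgeR adjusted p = 3.82e-06). HCN2 rose from 43.8, 51.5 and 55.4 CPM to 59.6, 57.8 and 61.1 CPM (0.24, SE 0.09, edgeR adjusted p = 0.0435). Groups were apart in both genes, but HCN2 has the highest GC content of the members (70.8%) and its change after the correction was -0.20, called in the opposite direction, where HCN4 stayed at 0.58. The HCN2 call was also lost without any one library other than EGFP replicate 3 (adjusted p 0.0942 to 0.189). Per length HCN2 led in both groups, with 74.9% ± 1.9 of the summed HCN RPKM in EGFP and 67.1% ± 0.2 in OmoMYC libraries (SD, n = 3), and HCN4 held 13.7% and 21.5%. These sums lack HCN3, which has no row in the OmoMYC table. In the DMSO libraries, where HCN3 is listed, it held 33.4% of the HCN sum and HCN2 41.1%.

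The TRP channels held the largest rises, those of TRPC4 and TRPM6. Of the tested members 2 of 5 TRPM, 1 of 4 TRPC and 0 of 3 TRPV genes were induced, against 27.3% of all genes tested. Of the TRPM genes 2 were suppressed, and no TRPC or TRPV gene, against 25.7%. After the correction for GC content, length and span 1 TRPM and 2 TRPC genes were induced, against 22.2% of all genes. Then 3 TRPM genes were suppressed, against 38.4%. TRPM6, a channel fused to a kinase that takes up magnesium in kidney and gut, rose from 1.14, 1.07 and 1.24 CPM to 20.8, 20.6 and 19.0 CPM, a log2 fold change of 4.12 (SE 0.12, edgeR adjusted p = 2.43e-09). Both groups were narrow and far apart, and over all alternatives the change stayed between 4.06 and 4.15. TRPM7, its close relative and partner, which is expressed in nearly all cells, fell from 85.4, 69.1 and 69.3 CPM to 61.0, 59.7 and 58.7 CPM (-0.32, SE 0.09, edgeR adjusted p = 0.0134). The groups were apart, although EGFP replicate 1 stood above the other EGFP libraries. TRPM7 shares 390 bases of exon with an unnamed gene on the same strand. In RPKM TRPM7 remained the higher of the pair, at 6.03 ± 0.76 in EGFP and 4.83 ± 0.09 in OmoMYC libraries, while TRPM6 went from 0.125 ± 0.009 to 2.19 ± 0.11. TRPM6 thus supplied 1.75% of the summed TRPM RPKM in EGFP and 26.7% in OmoMYC libraries.

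TRPM3, a steroid- and heat-gated channel, fell from 6.06, 4.91 and 5.41 CPM to 2.66, 3.06 and 2.83 CPM (log2 fold change -0.93, SE 0.14, edgeR adjusted p = 0.000297). Its groups were apart, and it stayed suppressed in every alternative, from -1.28 to -0.87. TRPM4, a channel opened by intracellular calcium, was induced, with 4.08 to 4.72 CPM in EGFP and 5.27 to 6.78 CPM in OmoMYC libraries (0.53, SE 0.14), but the change was 0.03 and not called after the correction, and the adjusted p was 0.0514 without OmoMYC replicate 3. TRPM5 was not called (-0.46, SE 0.32), but was called as suppressed after the correction (-0.92).

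TRPC4, a receptor-operated cation channel, had 1, 0 and 0 counts in the EGFP libraries and 54, 45 and 35 in the OmoMYC libraries. Set against a floor of 3 counts per library it was at least 13.6-fold higher in OmoMYC cells (edgeR adjusted p = 1.9e-05). Its level stayed low even so, at 0.170 ± 0.048 RPKM in OmoMYC libraries. TRPC1, which made up 94.4% of the summed TRPC RPKM in EGFP libraries, was at 19.2, 15.9 and 14.7 CPM in EGFP and 20.9, 20.1 and 19.1 CPM in OmoMYC libraries, and these ranges overlapped. It was just outside the threshold (0.27, SE 0.11, edgeR adjusted p = 0.0527) and was called as induced in 7 of 15 alternatives, among them the correction for GC content, length and span (0.49). TRPC5 was not called (0.69, SE 0.33), except without OmoMYC replicate 1 (0.89, adjusted p = 0.0492). TRPC6 and TRPC7 were not tested, with 2, 0 and 0 against 2, 10 and 8 counts and 0, 0 and 0 against 1, 10 and 1 counts. No TRPV channel was called: TRPV3 stood at 2.03 to 2.29 CPM in EGFP and 1.41 to 2.13 CPM in OmoMYC libraries (-0.19, SE 0.19), and TRPV2 and TRPV6 had changes of 0.30 (SE 0.29) and 0.50 (SE 0.30). TRPV3 shares 441 bases of exon with SPATA22 on the same strand. TRPC4AP, which the symbol rule also takes, encodes a ubiquitin ligase adaptor and no channel subunit, and was not called (0.10, SE 0.06), but was called as suppressed after the correction (-0.10).

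In the CLCN family 2 of 7 tested members were induced (28.6%, near the 27.3% of all genes tested) and none was suppressed, and after the correction for GC content, length and span 1 was induced and 2 were suppressed. CLCN4, an endosomal chloride-proton exchanger, rose from 45.5, 42.6 and 44.1 CPM to 61.3, 65.5 and 62.7 CPM (log2 fold change 0.52, SE 0.07, edgeR adjusted p = 0.000201), with the groups apart. CLCN2, a plasma membrane chloride channel, was induced (0.34, SE 0.11, edgeR adjusted p = 0.0204), but shares 2103 bases of exon with FAM131A on the opposite strand. Its call was lost after the correction (-0.05) and without EGFP replicate 2 or any one OmoMYC library (adjusted p 0.05004 to 0.0878). CLCN3, the most abundant member at 17.3 ± 1.8 RPKM in EGFP libraries, was not called (-0.07, SE 0.09), nor were the lysosomal exchangers CLCN6 (0.08, SE 0.07) and CLCN7 (0.18, SE 0.10). After the correction CLCN6 and CLCN7 turned sign and were called as suppressed (-0.20, edgeR adjusted p = 0.00129, and -0.33, adjusted p = 9.68e-06), and without EGFP replicate 3 CLCN7 was called as induced (0.24, adjusted p = 0.038). CLCN5 had only 25 to 61 counts per library in the OmoMYC table under its main identifier and at most 2 under another, against 3158 to 4395 in the parental table, so its level in the OmoMYC experiment is uncertain; the cause was not tested.

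Sodium channel genes lie in clusters, and on chromosome 2 (hg19 chr2:165944036-167467992) SCN3A, SCN2A, SCN1A, SCN9A and SCN7A stand side by side. All 5 were induced, against 27.3% of all genes tested. SCN7A had only 8, 2 and 3 counts in EGFP libraries. The SCN1A call was lost without EGFP replicate 2 or 3 or without OmoMYC replicate 2 or 3. Of the 3 other genes tested in that interval GALNT3 was induced (1.81), TTC21B was suppressed (-0.65) and CSRNP3 was not called (0.12). An effect on the interval as a whole was not tested. On chromosome 17 (hg19 chr17:64831235-65052913) CACNG5 and CACNG4 were induced and their neighbour CACNG1 was not called. Channel genes are also long: the median span of tested members was 96.0 kb, against 35.0 kb over all genes tested. Of members spanning at least 100 kb 15 of 27 were induced, against 846 of 2962 such genes overall.

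Genes that work with these channels were followed in lists written from general knowledge. The channel partners include TRPC4AP, which the symbol rule also takes, so this gene is counted in both sets. Of 22 tested channel partners 7 were induced (31.8%, near the 27.3% of all genes tested) and 4 suppressed (18.2%, against 25.7%), and the largest rise was that of ANK3 (2.50, SE 0.07), the ankyrin that anchors sodium channels at the axon initial segment, which went from 48.8 ± 3.6 to 277 ± 2 CPM (SD, n = 3). ANK2 (0.98, SE 0.06) and PEX5L (1.17, SE 0.09), an HCN auxiliary protein, were also induced, while GEM (-0.82, SE 0.11), which restrains calcium channels, was suppressed. Of 16 other cation channels 7 were induced (43.8%) and 1 suppressed (6.25%), and NALCN, the sodium leak channel, went from 0.71 ± 0.078 to 6.04 ± 0.65 CPM (3.08, SE 0.17). Of 20 other chloride channels 8 were induced (40%) and 2 suppressed (10%). Among 18 genes of calcium stores and store-operated entry, 8 were induced (44.4%) and 2 suppressed (11.1%), against the same 27.3% and 25.7% of all genes. After the correction for GC content, length and span the suppressed genes numbered 9 of the channel partners, 6 of the other cation channels, 7 of the other chloride channels and 7 of the calcium store genes, against 38.4% of all genes, and the induced ones 6, 7, 7 and 7, against 22.2%. REST, whose protein represses neuronal genes including sodium channels, was suppressed, from 45.9 ± 4.3 to 29.0 ± 1.7 CPM (-0.66, SE 0.09), as was its corepressor RCOR1 (-0.25, SE 0.07), and the other 2 genes of that complex were not called. After the correction all 4 genes of the complex were called, 3 as suppressed and 1 as induced, against 38.4% and 22.2% of all genes.

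In parental cells dTAG47 changed no channel gene beyond the threshold. None of the 51 tested members was called by edgeR, DESeq2 or limma-voom, against 0.159% of all 14470 genes tested by edgeR. The log2 fold changes ranged from -0.51 to 0.50 with a median of 0.01. At an unadjusted p below 0.05 stood 6 members (11.8%), against 7.28% of all genes tested. These were TRPV1 (0.50, SE 0.21), CACNG4 (0.18, SE 0.05), SCN3B (0.10, SE 0.04), HCN4 (-0.20, SE 0.06), CACNA2D1 (-0.17, SE 0.06) and CLCN6 (-0.12, SE 0.05), with edgeR adjusted p from 0.502 to 0.673. TRPV1 shares exon with SHPK (242 bases) and CLCN6 with NPPA (286 bases).

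The members closest to a call were CACNG4 and HCN4. CACNG4 stood at 48.4, 49.3, 53.3 and 53.3 CPM in DMSO and at 57.0, 54.8, 57.8 and 61.9 CPM in dTAG47 libraries. HCN4 stood at 17.4, 17.7, 18.2 and 18.8 CPM in DMSO and at 15.9, 14.5, 15.9 and 16.7 CPM in dTAG47 libraries. The groups were apart in both, by less than the width of either group. With a factor for replicates 1 and 2 against 3 and 4, CACNG4 and SCN3B were called as induced and HCN4, CACNA2D1 and CLCN6 as suppressed, 5 of 51 members against 5.49% of all genes called in that fit. CACNG4 was higher and HCN4 lower after dTAG47. Both were among the genes induced in OmoMYC cells.

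**Figure D5:**
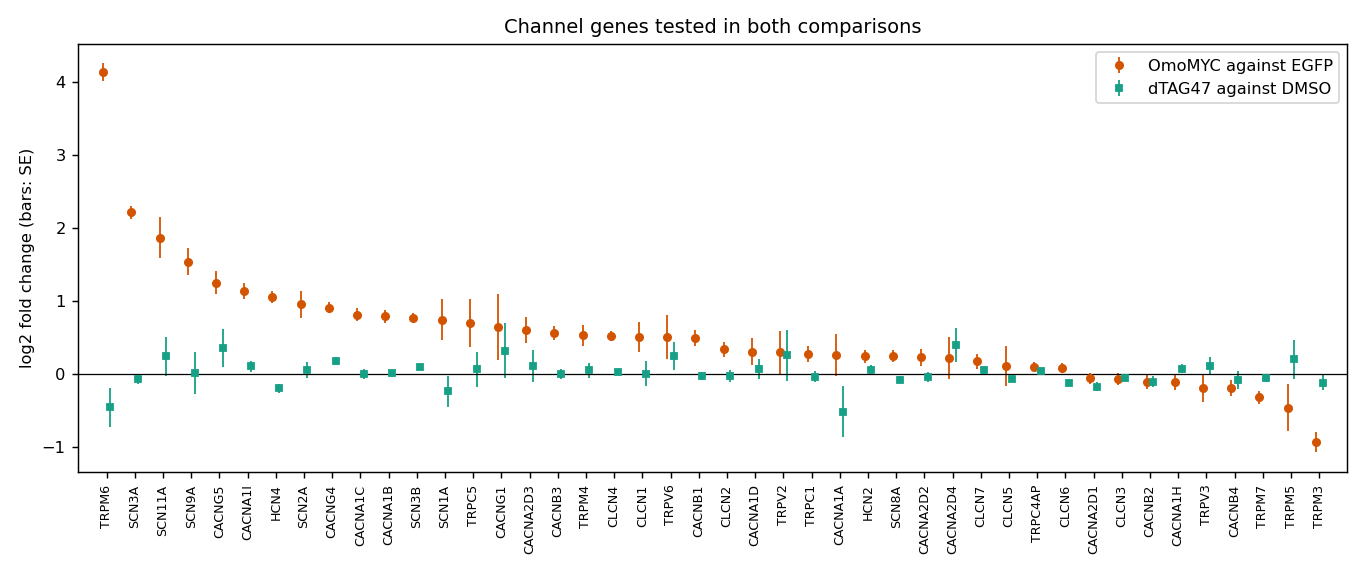
Log2 fold change with SE (y axis) of 44 of the 48 members tested in both comparisons, ordered along the x axis by the OmoMYC value, with circles for OmoMYC against EGFP (n = 3 and 3) and squares for dTAG47 against DMSO (n = 4 and 4). The circles run from -0.93 to 4.12 and the squares from -0.51 to 0.40.

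SCN3A, TRPM6, CACNA1B and TRPM3, which were called in OmoMYC cells, were not called with dTAG47. SCN3A stood at 29.7, 27.9, 27 and 25.1 CPM in DMSO and at 26.8, 26.9, 26.4 and 24.4 CPM in dTAG47 libraries (log2 fold change -0.07, SE 0.06), with the ranges overlapping. TRPM6 had 24 to 28 counts in DMSO and 9 to 28 in dTAG47 libraries (-0.46, SE 0.26, edgeR adjusted p = 0.68). CACNA1B changed by 0.01 (SE 0.05) and TRPM3 by -0.12 (SE 0.10). TRPC4 and CACNG7 had at most 1 count in any parental library and were not tested.

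Levels in the control groups of the experiments, EGFP cells and DMSO-treated parental cells, can be set side by side, but the tables were made separately and no test was run across them. SCN8A and SCN3A led the alpha subunits in DMSO libraries as well (3.76 ± 0.03 and 2.37 ± 0.17 RPKM, SD, n = 4), CACNA1B stood at 14.7 ± 0.5 RPKM against 13.6 ± 1.1 in EGFP, and TRPM7 at 6.77 against 6.03. Some members differed between these groups by more than their spread. CACNA1H was at 6.65 ± 0.35 RPKM in DMSO and 14.1 ± 1.8 in EGFP libraries, and HCN2 at 8.19 ± 0.55 and 14.7 ± 1.7. Both genes are GC-rich (66.1% and 70.8%), and the part of GC content in these gaps was not tested. HCN3, listed in the parental table alone, stood at 6.66 ± 0.51 RPKM in DMSO libraries, close to HCN2. CACNA1G had 1 to 7 counts in DMSO and 31 to 38 in EGFP libraries, although the DMSO libraries were deeper, and CACNG7 had 0 counts in all DMSO libraries and 6 to 12 in EGFP libraries.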

How the data were processed

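RNA was depleted of ribosomal RNA and sequenced on a NovaSeq. The deposited values are raw counts per gene, which the authors obtained with FeatureCounts from STAR alignments to hg19 of reads that Cutadapt had trimmed. Versions, the gene annotation and the strand setting are not given in the sources used here. Replicates are described as biological, 3 per group in the OmoMYC experiment and 4 in the parental one. The p-values of each experiment set the difference between its groups against the spread of its own libraries. Each table was analysed on its own with edgeR 4.0.16 (R 4.3.3): filterByExpr, TMM scaling, the robust quasi-likelihood test and Benjamini-Hochberg adjustment over all genes tested, with calls at a false discovery rate below 0.05. The SE of a log2 fold change is its size divided by the root of the F value. CPM use TMM-scaled library sizes, and RPKM divide them by the union of exons in GENCODE v44 lifted to GRCh37. DESeq2 1.42.0, limma-voom 3.58.1, other scalings and filters, a replicate block, leaving out each library and offsets that remove a spline trend (4 degrees of freedom each) on exonic GC content, exonic length and span were alternatives. Genes named with values are, per role group, the most abundant tested member and the called members with the largest rise and fall, with all called members of log2 fold change of at least 1 and those with at most 3 counts in one group and a mean of at least 10 in the other, and further members are named to account for their group. Members and gene lists were chosen with earlier results of these data known. The script was tested on simulated data. Same-numbered libraries deviated together with correlations of -0.07 to 0.29, not all above 0.1, so numbers were not taken as pairs. The floor for folds is 3 counts, which covers counting error only. Exons were shared with another protein-coding gene in 12 members and with any gene in 38. Motif positions are those of the first base. Some members and markers are not reported here by name or drawn, but stay in the counts.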

Additional observations from a re-analysis of the deposited data

Results flagged for a closer look

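For the members named with values, 56 groups of 4 parental libraries were checked for a single library far from the rest by Dixon's criterion, which chance alone meets in about 1 of 20 groups, and 5 met it. In the dTAG47 group, CACNA1C stood at 9.48 CPM in replicate 1, against 10.9 to 11.1 CPM in the others, and CLCN4 at 53.7 CPM in replicate 3, against 55.8 to 56.1 CPM. In the DMSO group, CLCN6 stood at 63.0 CPM in replicate 4, against 57.1 to 57.4 CPM, HCN2 at 30.8 CPM in replicate 3, against 26.9 to 27.2 CPM, and SCN3B at 105 CPM in replicate 3, against 110.0 to 110.4 CPM. The low SCN3B library and the high CLCN6 library both lie on the side that widens the difference from dTAG47 reported above.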

How the results depend on the processing

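The OmoMYC counts of 28 induced and 3 suppressed members were the same with DESeq2 and with RLE factors, and the replicate block gave 30 and 3. Limma-voom and scaling by library size alone each called 32 members, with TRPC1 added. Without the filter on low counts 34 members were called. The added ones were CACNG3, TRPC6 and TRPC7, which the filter otherwise leaves untested. The correction for GC content, exonic length and gene span gave 22 induced and 12 suppressed members with a median of 0.15, and with the replicate block also 22 and 12, with a median of 0.16. It turned the sign of 11 members, 5 of which were then called as suppressed: HCN2 (-0.20, and -0.21 with the block), TRPC4AP (-0.10 in both), CACNA2D2, CLCN6 and CLCN7. CLCN3 (0.072 in both), CLCN2, CACNA1A, CACNA1D, CACNA2D4 and TRPV2 turned without a call. The cause was not tested. Members with at least 10 counts in every library had a median of 0.31, since the members with the fewest counts and several of the largest rises drop out. Without each library in turn, the induced count ranged from 23 to 28, the suppressed count from 2 to 4 and the median from 0.42 to 0.53. Of the values of single named genes under an alternative, 513 kept direction and side of the threshold, 27 gained a call, 22 lost it and 6 turned sign. With dTAG47 no member was induced or suppressed without any one library (0 and 0). The replicate block called 2 induced and 2 suppressed members, the correction for gene features 1 and 2 with or without the block, the factor for replicates 1 and 2 against 3 and 4 called 2 and 3, and replicates 3 and 4 alone 2 and 1, where replicates 1 and 2 alone called 0. The fits on subsets of replicates were chosen after seeing the data. Members with few counts, such as SCN7A and TRPC4, are limited by depth, and members without calls may still differ by less than these libraries resolve.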
